A study of Canis lupus familiaris with 36 samples.

Results

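The miR-30 family in canine cardiac hemangiosarcoma (HSA) is described here across 12 heart libraries. Its members are the 5 mature microRNAs cfa-miR-30a, cfa-miR-30b, cfa-miR-30c, cfa-miR-30d and cfa-miR-30e, taken by family name from the 453 mature miRNAs listed in the count table. The choice was made with earlier results of these data known. The family occupied 6 entries of that table, because miR-30c was listed under both of its precursors with counts that were equal in 10 of 12 libraries and differed by at most 3 counts in the others, and it was counted once. All 5 members passed the filter on low counts, along with 220 other mature miRNAs, so that 225 were tested.

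Hemangiosarcoma is a malignant tumor of endothelial cells, and in dogs it often forms in the heart. Small RNA was sequenced from formalin-fixed, paraffin-embedded heart tissue, with 1 library per dog. The tumor group was 6 dogs with cardiac HSA, and the control group was 6 hearts from dogs that died of causes other than cancer. The groups were taken from the sample titles, because the treatment field of the labels gave the opposite condition for every heart library. Every direction given here rests on the titles and would turn around under the treatment field. The study states that the dogs with HSA were older than the controls and that earlier treatment was possible, so condition, age and earlier treatment cannot be told apart in these libraries. The tissue was sampled whole, so a lower level in bulk RNA can come from fewer cells of a type or from less RNA per cell, and these cannot be told apart.

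miRNAs are short RNAs that guide repression of messenger RNAs, chiefly by pairing through a seed near their 5′ end. The members of the miR-30 family share that seed and can therefore recognize many of the same targets, while their remaining bases differ. The family is abundant in heart muscle, where it is known to repress connective tissue growth factor, and in endothelial cells it is known to repress the Notch ligand DLL4 and to take part in vessel sprouting. In the RefSeq annotation of the dog assembly UU_Cfam_GSD_1.0, the precursor genes lie as neighbors in 3 pairs on different chromosomes: MIR30C-2 with MIR30A, MIR30B with MIR30D, and MIR30C-1 with MIR30E.

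Total counts after identical entries were merged ranged from 6999830 to 11668822 in control libraries and from 2018959 to 8999025 in HSA libraries, so the tumor libraries were in general shallower. Levels are given as TMM CPM, counts scaled to a common library total and then by the trimmed mean of M values (TMM), a method that corrects for differences in library composition. The TMM factors ranged from 0.769 to 0.889 in controls and from 0.948 to 1.97 in HSA. With this scaling the log2 fold changes (HSA against control) of the tested miRNAs had a median of 0.34, and the members lay 1.11 (miR-30b) to 2.28 (miR-30d) log2 units under it.

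miR-30 was abundant in control heart and took a smaller share of every tumor library. Shares of a library were taken of the total over reported entries only, with the highest entry kept for each mature miRNA. These totals ranged from 5544912 to 9336949 in controls and from 1656084 to 7254770 in HSA, under the merged totals given above. Counts of the 5 members together made up 18.2% to 24.9% of this total in a control library, with a median of 19.9%. In HSA libraries the share was 4.58% to 17.7%, with a median of 9.71%. The highest tumor share was below the lowest control share, so the groups did not overlap. The 95% Wilson intervals around these family shares were at most 0.0481 percentage points to either side, which covers counting error only. The deposited CPM were scaled by the authors to each library's total over all entries, a larger total. The summed family ranged there from 127353 to 176306 CPM in controls and from 38664 to 123035 CPM in HSA, also without overlap. On the TMM scale the summed family ranged from 162480 to 250103 CPM in controls and from 27235 to 150456 CPM in HSA, again without overlap. On this scale HSA replicate 6 held the highest sum among tumors, and HSA replicate 2, with the TMM factor of 1.97, the lowest. By share of the library HSA replicate 3 was the lowest (4.58%), below HSA replicate 2 (6.72%).

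All 5 members had a log2 fold change below 0, from -1.94 to -0.77 with a median of -1.10. Among all tested miRNAs, 36.9% had a log2 fold change below 0. With an adjusted p under 0.05 as well there were 3 of 5 members (miR-30a, miR-30c and miR-30d), and 16.4% of all tested miRNAs. A member was called when its adjusted p in edgeR's quasi-likelihood F test was under 0.01 and its absolute log2 fold change was at least 1. By that rule 2 of 5 members, miR-30c and miR-30d, were called lower in HSA, and 0 were called higher by edgeR, DESeq2 or limma. Over all tested miRNAs 7.11% were called lower and 18.7% were called higher. The number of members called lower was 0 when any one of control replicates 1, 2, 4 or 5 or HSA replicates 1 or 4 was left out, 1 without HSA replicate 2, and 4 without HSA replicate 6.

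**Figure D1:**
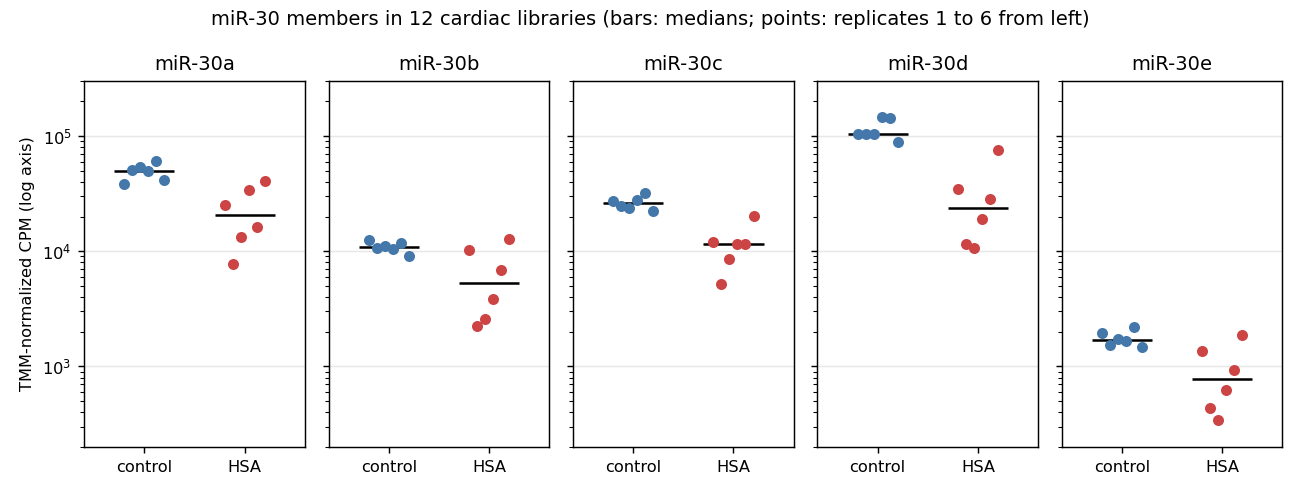
TMM CPM (log axis) of each miR-30 member in 6 control and 6 HSA heart libraries, with each point a dog and each bar the group median. All 6 HSA points lie below all 6 control points for miR-30c and miR-30d, and HSA replicate 6 is the highest HSA point for each member.

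miR-30d, which has been studied as a circulating miRNA in heart failure, was the most abundant mature miRNA in control heart by mean level and had the largest difference of the family. Its level ranged from 88106 to 144867 TMM CPM in controls (median 104223, mean 114728 ± 23399 SD, n = 6). In HSA it ranged from 10624 to 75001 TMM CPM (median 23818, mean 29891 ± 24022 SD, n = 6). Every tumor library was below every control library, and HSA replicate 6 was the only tumor above 34587 TMM CPM. miR-30d fell by 1.94 on the log2 scale in HSA (standard error 0.45, edgeR adjusted p = 0.00461), a fold difference of 3.84, and its fold change was the 3rd lowest of 225. Its mean level ranked 1st in controls and 8th in HSA. The rank in HSA counts miR-133a and miR-133c separately (mean 31184 TMM CPM each), although their counts are nearly identical. Another miRNA ranked above miR-30d there, miR-122, had a mean of 34242 ± 83355 SD. The adjusted p of miR-30d rose to between 0.0108 and 0.0147 when any one of control replicates 1, 2, 4 or 5 or HSA replicates 1, 2 or 4 was left out, and its log2 fold change with any single library left out ranged from -2.46 to -1.77.

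miR-30c, known to repress connective tissue growth factor and the lipid transfer protein MTTP, was also called lower. It ranged from 22390 to 32175 TMM CPM in controls (median 25960, mean 26347 ± 3513 SD, n = 6). In HSA its range was 5231 to 20231 TMM CPM (median 11544, mean 11528 ± 4990 SD, n = 6). As for miR-30d, the groups did not overlap on the TMM scale. HSA replicate 2 had the lowest miR-30c on that scale, whereas HSA replicate 3 had the lowest miR-30d. On the deposited CPM, miR-30c was lowest in HSA replicate 3 (9371), below HSA replicate 2 (9635). miR-30c fell by 1.19 on the log2 scale (standard error 0.27, edgeR adjusted p = 0.00456), or 2.29-fold, and it ranked 26th from the lowest fold change. Leaving out control replicates 1, 2, 4 or 5 or HSA replicates 1 or 4, one at a time, moved its adjusted p to between 0.0102 and 0.0126.

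miR-30c and miR-30d were thus the 2 of 5 members without overlap between the groups on the TMM scale, where 10.7% of all tested miRNAs had every HSA library below every control library. On the deposited CPM, which carry no TMM factor, 1 of 5 members, miR-30d, was without overlap, against 3.56% of all tested miRNAs.

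miR-30a, known to repress the autophagy protein beclin 1, was the second most abundant member in control heart. Its level was 38394 to 61200 TMM CPM in controls (median 49927, mean 49126 ± 8281 SD, n = 6). In HSA it was 7817 to 40703 TMM CPM (median 20715, mean 22845 ± 12711 SD, n = 6). HSA replicate 6 lay inside the control range, and the other 5 tumor libraries lay below all controls. On the deposited CPM, HSA replicates 4 and 6 (37323 and 33285) both lay inside the control range (26823 to 41329). The log2 fold change was -1.10 (standard error 0.36), and the edgeR adjusted p of 0.0236 missed the threshold. Without HSA replicate 6 the log2 fold change was -1.35 and the adjusted p was 0.00719, which passed.

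miR-30b, transcribed near miR-30d and known to repress the glycosyltransferase GALNT7 in melanoma, overlapped most between the groups. Controls ranged from 9023 to 12473 TMM CPM (median 10860, mean 10914 ± 1179 SD, n = 6). Tumors ranged from 2256 to 12638 TMM CPM (median 5345, mean 6406 ± 4303 SD, n = 6). HSA replicate 6 was above every control, HSA replicate 1 with 10294 TMM CPM was inside the control range, and the other 4 tumors were below all controls. On the deposited CPM, HSA replicates 1 and 6 (9789 and 10335) were above every control (at most 8714), and 3 tumors were below all controls. The log2 fold change was -0.77 (standard error 0.40, edgeR adjusted p = 0.132), and the call was not made with any single library left out.

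miR-30e was the least abundant member. It ranged from 1474 to 2210 TMM CPM in controls (median 1699, mean 1757 ± 276 SD, n = 6) and from 343 to 1883 TMM CPM in HSA (median 772, mean 928 ± 598 SD, n = 6). HSA replicate 6 was again the 1 tumor library inside the control range on this scale. On the deposited CPM it was above every control (1540 against at most 1492), and HSA replicate 1 (1301) was inside the range. The log2 fold change was -0.92 (standard error 0.37, edgeR adjusted p = 0.0601). Without HSA replicate 6 it was -1.25 with an adjusted p of 0.00858, and the call was made.

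**Figure D2:**
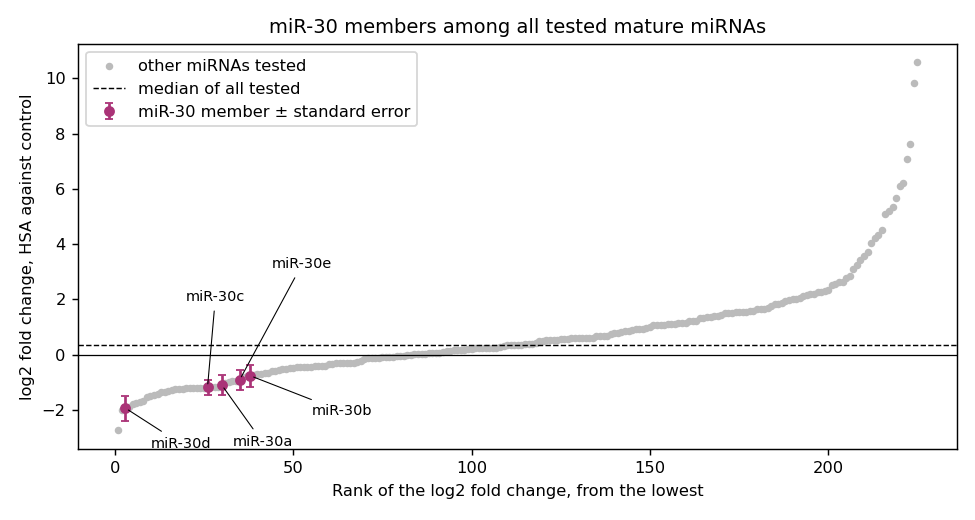
Log2 fold change (HSA against control) of 225 tested mature miRNAs, ordered from the lowest, with the miR-30 members marked and their standard errors as bars. The members hold ranks 3 (miR-30d), 26 (miR-30c), 30 (miR-30a), 35 (miR-30e) and 38 (miR-30b), all under the dashed median of 0.34.

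The order of the members by count was the same in all 6 control libraries: miR-30d was highest, followed by miR-30a, miR-30c, miR-30b and miR-30e. In HSA the order was kept in 4 libraries, and in 2 libraries, HSA replicates 3 and 4, miR-30a exceeded miR-30d. No other pair of neighbors in the order changed places in any of the 12 libraries. The mature sequences of the members are close to each other, and reads that fit more than one of them could have been assigned to either by the authors' mapping. Levels were compared between members without correction for ligation efficiency, which differs among small RNA sequences.

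The make-up of the family shifted from miR-30d to the other 4 members. miR-30d supplied 53.5% to 61.8% of family counts in controls (median 55.5%) and 27.6% to 49.8% in HSA (median 41.8%). Every tumor share was below every control share. miR-30a supplied 20.8% to 27.6% in controls (median 25.0%) and 25.4% to 49.1% in HSA (median 29.4%), so its ranges overlapped. miR-30c supplied 11.8% to 14.8% against 13.4% to 24.2%, and miR-30b 4.50% to 6.77% against 5.61% to 12.3%. miR-30e remained the smallest part, with 0.714% to 1.05% in controls and 0.899% to 1.64% in HSA. These 3 members also overlapped between the groups.

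**Figure D3:**
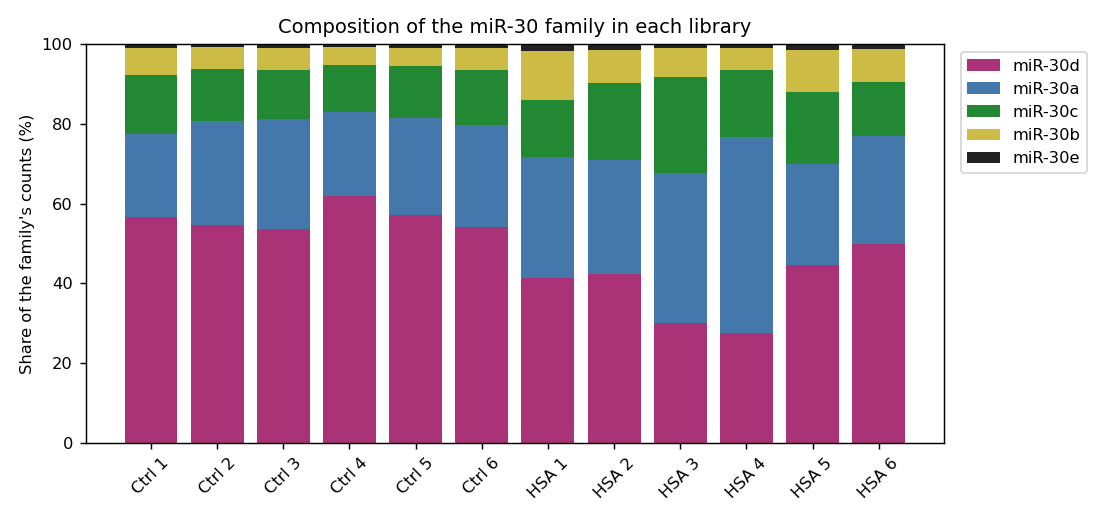
Percent of miR-30 family counts supplied by each member in 12 heart libraries, with each stacked bar a dog. The miR-30d segment is 53.5% or more of every control bar and 49.8% or less of every HSA bar.

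Ratios between members were tested within libraries, because a ratio does not depend on the scaling of a library. All 10 pairs were compared by a two-sided exact permutation test of the mean log2 count ratio, with p-values adjusted over the 10 pairs by the Benjamini-Hochberg method. The 4 pairs that contain miR-30d differed between the groups, each with an exact permutation p of 0.00216, the smallest that 6 against 6 libraries can give, and an adjusted p of 0.00541. None of these 4 ratios overlapped between the groups. The mean log2 ratio of miR-30b to miR-30d rose from -3.38 ± 0.26 to -2.18 ± 0.29 (SD, n = 6 per group), a difference of 1.20. miR-30b, the neighbor of miR-30d, was thus below it in all 12 libraries, by less in tumors than in controls. The ratio of miR-30a to miR-30d rose from -1.22 ± 0.23 to -0.26 ± 0.68, and that of miR-30c to miR-30d from -2.11 ± 0.16 to -1.15 ± 0.56, each a difference of 0.96. The ratio of miR-30d to miR-30e fell by 1.09, from 6.02 ± 0.24 to 4.93 ± 0.23. The 4 differences passed with any single library left out (exact permutation test, adjusted p = 0.0108).

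The other 6 pairs did not pass. Their differences in mean log2 ratio ranged from -0.24 for miR-30a to miR-30b (exact permutation test, adjusted p = 0.674) to 0.24 for miR-30b to miR-30c (adjusted p = 0.613). Among these 6, miR-30b to miR-30e had the smallest SD in HSA, with a mean log2 ratio of 2.64 ± 0.13 in controls and 2.74 ± 0.20 in HSA (adjusted p = 0.613). The difference for miR-30a to miR-30c was -0.0041 (adjusted p = 0.987), and its sign changed when single libraries were left out.

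**Figure D4:**
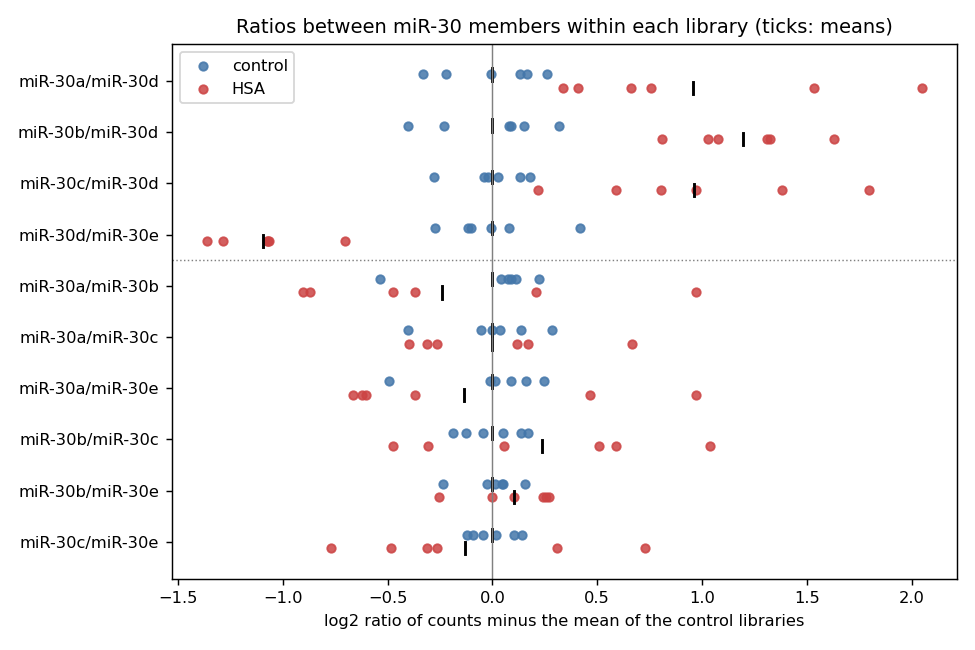
Log2 count ratios of the 10 pairs of miR-30 members in each of 12 heart libraries, minus the control mean of that pair, with ticks at the group means. The groups are separate for the 4 pairs that contain miR-30d, with mean differences from -1.09 to 1.20, and overlap in the other 6 pairs.

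With both groups pooled, the members varied together across dogs around their group means. After the mean of each group was subtracted, Pearson's r of log2 TMM CPM over the 12 libraries was highest for miR-30b with miR-30e (0.974) and miR-30d with miR-30e (0.957), which are not listed as neighbors. It was 0.936 for the neighbors miR-30b and miR-30d, and lowest for miR-30a with miR-30e (0.704) and miR-30a with miR-30b (0.708). The spread was wider in HSA (for miR-30b an SD of 4303 TMM CPM against 1179 in controls), so tumor libraries weigh more in these values. No r was computed within either group alone, so covariation among the controls by themselves is not shown. These values are descriptions without a test, and all points share the scaling of their library.

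Marker miRNAs of muscle and of other cells were compared in the same libraries. The 8 muscle miRNAs (such as miR-1 and miR-133a, which heart muscle is known for) included 7 with a log2 fold change below 0 and a median of -1.24, but 0 of 8 were called by edgeR or DESeq2, and 1 had an unadjusted p under 0.05 in each. miR-133a had a log2 fold change of -1.24 (edgeR adjusted p = 0.218), with counts nearly identical to those of miR-133c, and miR-1 one of -1.27 (adjusted p = 0.218). The summed level of the 8 muscle miRNAs was 189921 to 271362 TMM CPM in controls and 942 to 233009 in HSA. By this sum, 4 tumor libraries were below all controls. The sum, used below also as a covariate, adds miR-133a and miR-133c separately although their counts are nearly identical. A sum with only 1 of them was not computed. No muscle miRNA was at 0 in all libraries.

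Among the tumor libraries, those with the least muscle signal on the TMM scale were also those with the least miR-30d. The controls did not show this order: control replicate 4 had their lowest muscle sum (189921) and their highest miR-30d (144867 TMM CPM). By share of the library, miR-30d was lower in HSA replicate 4 (2.75%) than in HSA replicate 2 (2.84%). HSA replicate 3 had 942 TMM CPM of muscle miRNAs with 10624 of miR-30d, and HSA replicate 2 had 21821 with 11500. HSA replicates 1 and 6 had muscle sums of 190256 and 233009 TMM CPM, within the control range. HSA replicate 1 was close to the lowest control in this sum (189921). In both, miR-30d (34587 and 75001 TMM CPM) and miR-30c (12062 and 20231 TMM CPM) were below every control library on the TMM scale. By share of the library, miR-30c in HSA replicate 6 (2.38%) was just above the lowest control (2.37%). miR-30b in HSA replicates 1 and 6 (10294 and 12638 TMM CPM) was not below the controls. With the summed muscle miRNAs as a covariate in edgeR, the log2 fold change was -1.40 for miR-30d (adjusted p = 0.0103) and -0.91 for miR-30c (adjusted p = 0.0224), and neither was called. The other members were at -0.74 (miR-30a), -0.24 (miR-30b) and -0.38 (miR-30e) in that fit, against -1.10, -0.77 and -0.92 without the covariate. The part of muscle content in the difference between the groups was not tested beyond these values.

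**Figure D5:**
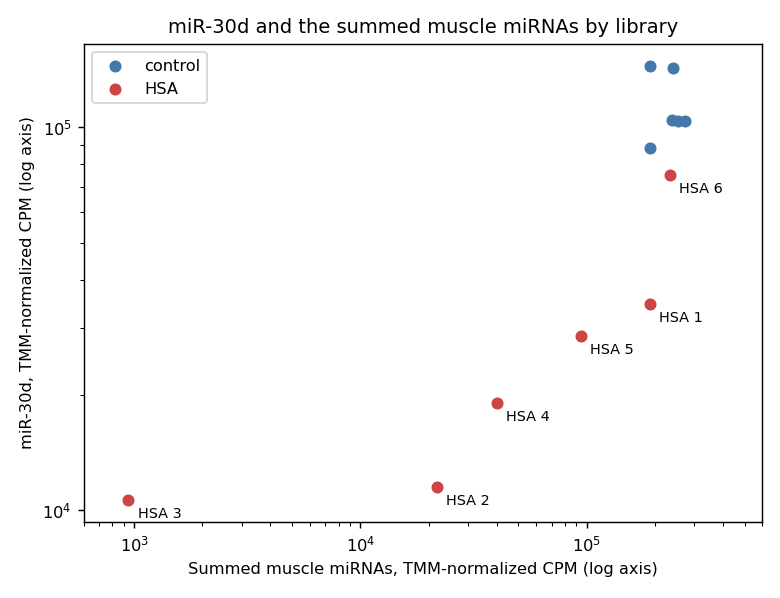
miR-30d against the summed muscle miRNAs, both in TMM CPM on log axes, with each point a dog. The sum includes both miR-133a and miR-133c, whose counts are nearly identical. HSA replicates 1 and 6 lie within the control range of muscle miRNAs (189921 to 271362) and below the lowest control for miR-30d (88106).

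miR-126, the defining endothelial miRNA, had a log2 fold change of -0.45 (edgeR adjusted p = 0.328), with 2371 to 4213 TMM CPM in controls and 944 to 4295 in HSA. It was called by neither edgeR nor DESeq2, and its unadjusted edgeR p was 0.247. All 4 miRNAs of myeloid and lymphoid cells were called higher by edgeR and DESeq2, and 2 of them by limma, and their sum was 289 to 424 TMM CPM in controls and 578 to 3555 in HSA. Of 10 epithelial miRNAs 5 were tested and 4 were called higher by edgeR, with sums of 11.7 to 25.1 TMM CPM in controls and 62.8 to 4254 in HSA. Of 3 erythroid miRNAs miR-144 was called higher by edgeR, and miR-451 had a log2 fold change of 0.81 (edgeR adjusted p = 0.198). miR-486 had a log2 fold change of -1.33 (edgeR adjusted p = 0.0205), and DESeq2 called 1 of the 3 lower. The erythroid sums were 20867 to 29994 TMM CPM in controls and 5709 to 47480 in HSA. None of the endothelial, immune, epithelial and erythroid miRNAs listed was at 0 in all 12 libraries. Their part in the levels of miR-30 was not tested.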

How the data were processed

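The deposited table of raw counts per mature miRNA and precursor was used for the 12 heart libraries. The 18 splenic HSA and 6 splenic control samples were not analysed here. Per the methods of the study, the authors trimmed reads with Cutadapt, dropped short reads, aligned with Bowtie to CanFam3.1, annotated with miRBase and counted with HTSeq. The methods name the NEXTflex small RNA kit for hearts, whereas the labels name a QIAseq kit. Library names are written in different formats for tumors and controls, and no sequencing batch was given, so a batch and the condition cannot be told apart. The deposited CPM equal the raw counts scaled by the authors to each library's total over all entries, to within 0.00499.

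Of 517 entries, 43 identical to another entry of the same mature name were removed, and 474 remained. For each mature miRNA the entry with the highest total was reported. Counts were filtered with filterByExpr, scaled by TMM and tested with the quasi-likelihood F test of edgeR 4.0.16 in R 4.3.3 over all 244 entries that passed, HSA against control, with no covariate. P-values were adjusted over all entries by the Benjamini-Hochberg method, and a call needed an adjusted p under 0.01 with a change of 1 or more log2 units either way. Pair ratios were tested with scipy 1.17.1 and called at an adjusted p under 0.05. The test was tried on simulated data. Alternatives included DESeq2 1.42.0, limma 3.58.1 on log2(deposited CPM + 1), other scaling factors and filters, counts thinned to the smallest library, and each library left out.

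Names given outside the family are at most 3 miRNAs per list and the 5 with the highest correlation to the summed family. The lists were muscle, endothelium, erythroid cells, myeloid and lymphoid cells, epithelium, and the let-7, miR-26 and miR-29 families. The members, lists and tests were chosen with earlier results of these data known. Each library is from a separate dog, and intervals cover counting error only. No sequence is printed, since none of the tables used here holds the miR-30 sequences.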

Additional observations from a re-analysis of the deposited data

Results flagged for a closer look

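In 42 groups of 6 libraries (levels, shares and ratios of the members), the highest or lowest library was set against the rest, and 3 groups had a library farther out than Dixon's limit for the gap over the range. Chance gives about 1 such group in 20.

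miR-30d in HSA replicate 6 was 75001 TMM CPM, with a gap of 0.628 of the group's range to the next tumor library. On the TMM scale HSA replicate 6 was the highest tumor library for each of the other members too. By share of the library, miR-30a was higher in HSA replicate 4 (4.88%) than in HSA replicate 6 (4.78%). The log2 ratio of miR-30a to miR-30b in control replicate 1 was 1.62, the lowest of the controls with a gap of 0.76 of the range. In the same library the log2 ratio of miR-30a to miR-30e was 4.31, also the lowest, with a gap of 0.656. This library had the lowest miR-30a of the controls (38394 TMM CPM) and the highest miR-30b (12473 TMM CPM). The causes were not tested.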

How the results depend on the processing

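All 5 members had a log2 fold change below 0 under every alternative run, but the calls of miR-30c and miR-30d were not stable, and the cause was not tested. For miR-30c the log2 fold change was -0.71 with library size only and -0.68 in limma on deposited CPM (size under the threshold in both), -1.17 with upper quartile factors (adjusted p = 0.0103), -0.91 with muscle miRNAs as a covariate, and -0.92 scaled to miR-8859a and miR-8859b, an alternative added after seeing the data. For miR-30d it was -1.86 with upper quartile factors (adjusted p = 0.0103), -1.40 with the muscle covariate and -1.60 with the miR-8859 scaling (adjusted p = 0.0210). DESeq2 called both (adjusted p = 0.000600 and 0.000274). With each library left out the ranges were -1.42 to -0.96 for miR-30a, -1.43 to -1.08 for miR-30c, -2.46 to -1.77 for miR-30d and -1.25 to -0.75 for miR-30e, and 0 to 4 members were called. The members called lower were 1 with library size only and 1 in limma, and 0 with upper quartile factors, the muscle covariate or the miR-8859 scaling, where 3, 2 and 3 members had an unadjusted edgeR p under 0.05. On deposited CPM 1 member was without overlap. The log2 ratio of miR-30a to miR-30c ranged from -0.138 to 0.0746 with each library left out.

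With library size only, the median over all tested miRNAs (log2 fold change) moved from 0.34 to 0.97; relative to it miR-30d was at -2.48, against -2.28. All miRNAs called numbered 42 higher and 16 lower, 68 and 5 with library size only, 53 and 5 in limma, 48 and 5 with the miR-8859 scaling, and 15 and 8 with the muscle covariate. Leaving out a library gave 24 to 65 calls in all.

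Replicate numbers do not pair the dogs: same-numbered libraries had correlations of deviations from -0.279 to 0.043, and 0 of 6 tumor libraries correlated best with their own number. With the replicate block, miR-30c was at -1.30 and miR-30d at -2.30 (edgeR adjusted p = 0.0200 and 0.0197), 0 members were called, 5 had an unadjusted p under 0.05, and 3 miRNAs in all were called higher and 3 lower. The blocked ratios, tested by exact sign changes (each p = 0.0312, the smallest that 6 pairs allow), differed by 0.96 (miR-30a to miR-30d), 1.20 (miR-30b to miR-30d), 0.96 (miR-30c to miR-30d) and -1.09 (miR-30d to miR-30e), each with an adjusted p of 0.0781 over the 10 pairs, so these 4 alone could not have reached 0.05.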

Other observations

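The let-7, miR-26 and miR-29 families, which were listed for comparison, had no member called by edgeR in these hearts. Of the let-7 family, known for holding back growth, 7 of 8 members in the table were tested and 0 were called by edgeR or DESeq2, with log2 fold changes from -0.54 to 0.52 and a median of -0.15, and 3 had an unadjusted p under 0.05. Let-7j was at 0 in all libraries. miR-26a had a log2 fold change of -0.67 (edgeR adjusted p = 0.00759), which missed the size threshold, and miR-26b one of -0.07. The 3 miR-29 members, which repress collagens, had values from 0.33 to 0.51, and 0 were called by edgeR or DESeq2, with 1 at an unadjusted p under 0.05. limma on deposited CPM called 1 miRNA of the let-7 list and 2 miR-29 members higher. Differences between these families and miR-30 were not tested.

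The miRNAs outside the family whose levels followed the summed miR-30 level most closely were miR-1249 (Pearson's r = 0.971), miR-486-3p (0.967), miR-99a (0.948), miR-99b (0.943) and miR-504 (0.942), of 220 compared over 12 libraries in 2 groups. With group means subtracted they were miR-486-3p (0.925), miR-1249 (0.924), miR-378 (0.846), miR-95 (0.845) and miR-99a (0.832). miR-486-3p fell by 2.75 on the log2 scale in HSA (edgeR adjusted p = 0.000935), and miR-1249 fell by 1.52 (adjusted p = 0.00987). These likenesses are descriptions and carry no test.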
